A study of Homo sapiens with 16 samples.

Results

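This section describes 7 genes, AMHR2, PRR15L, PDZK1IP1, CAPN3, ERP27, TUBA4B and TRIM50, among 67892 gene identifiers in each deposited table. They were selected on their measured read counts in HepG2, which rose many-fold from low levels with siPANAD, so the HepG2 differences between siPANAD and control are given as a description, with no test. The choice did not use the SNU-449 libraries, and those differences were tested. HepG2 is a line derived from a liver tumour that keeps many hepatocyte features, and SNU-449 is a hepatocellular carcinoma line. The groups were HepG2 cytoplasm, HepG2 nucleus, SNU-449 cytoplasm and SNU-449 nucleus, taken 48 h after cells received either an siRNA serving as negative control (NC) or the pooled siRNAs siPANAD-1 and siPANAD-2 (siPANAD) against PANAD (C7orf25). Each of the 8 groups had 2 libraries, described by the submitters as biological duplicates. The series title links PANAD to NXF1, the main mRNA export receptor, and to export of CDK6 mRNA from the nucleus. In bulk RNA a higher level in every cell and a larger share of cells with the RNA cannot be told apart.

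The genes do not form a pathway. AMHR2 encodes the type II receptor for anti-Müllerian hormone, a serine/threonine kinase of the TGF-beta receptor family that is known from the gonads and the regressing Müllerian duct and that signals through SMAD proteins shared with bone morphogenetic proteins. PDZK1IP1 (also MAP17) is a small membrane protein of kidney tubule cells that binds the scaffold PDZK1 and activates the glucose transporter SGLT2. CAPN3 is the calcium-dependent protease of skeletal muscle whose loss causes a limb-girdle muscular dystrophy. TRIM50 is a RING-type E3 ubiquitin ligase known from gastric parietal cells, with its gene in the region deleted in Williams-Beuren syndrome. ERP27 is a protein of the endoplasmic reticulum that belongs to the protein disulfide isomerase family but lacks the redox-active site. TUBA4B is an alpha tubulin gene that lies head to head with TUBA4A. PRR15L encodes a proline-rich protein of little known function.

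Total counts ran from 16238235 to 30321908 per library. The deepest library was HepG2 cytoplasm NC replicate 2, and the next held 19498081. C7orf25, the targeted gene, had 0 to 4 counts in the 8 HepG2 libraries and 0 to 7 in the 8 SNU-449 libraries, too few to check the knockdown. CDK6 was lower with siPANAD in all 4 comparisons, from 116 to 35.6 CPM (the counts of a gene relative to its library total, scaled by the TMM method) in the HepG2 cytoplasm and from 200 to 36.9 in the SNU-449 cytoplasm (group means). The 9 hepatocyte markers summed to 17700 to 42530 CPM in the HepG2 libraries and to 26.5 to 211 CPM in the SNU-449 libraries. In HepG2 that sum moved with siPANAD as well, from 28960 and 32610 to 40790 and 42530 CPM in the cytoplasm (lowest and highest library of each group) and from 23320 and 24790 to 17700 and 18210 in the nucleus. The 9 mesenchymal markers summed to 3367 and 3995 CPM with NC and 1756 and 1767 with siPANAD in the HepG2 cytoplasm, and to 5917 and 6209 against 2784 and 2880 in the nucleus. The blood and immune sum, mostly LYZ, was 462 to 622 against 394 to 421 CPM in the cytoplasm and 94.6 to 119 against 66.2 to 72.7 in the nucleus, and the endothelial sum was 9.62 to 11.1 with NC and 6.02 to 7.60 with siPANAD. The part of these shifts in the changes below was not tested. Markers of kidney tubule summed to at most 0.246 CPM and those of skeletal muscle to at most 2.04 CPM in any HepG2 library.

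On GRCh38 (GENCODE 29), AMHR2 (ENSG00000135409) lies on the plus strand of chromosome 12 from 53423855 to 53431534, and ERP27 (ENSG00000139055) on the minus strand of the same chromosome from 14914035 to 14939082. PRR15L (ENSG00000167183) lies on the minus strand of chromosome 17 from 47951967 to 47957878. PDZK1IP1 (ENSG00000162366) lies on the minus strand of chromosome 1 from 47183593 to 47191044. CAPN3 (ENSG00000092529) spans 42359500 to 42412318 on the plus strand of chromosome 15. TUBA4B (ENSG00000243910) spans 219253243 to 219272188 on the plus strand of chromosome 2, and TRIM50 (ENSG00000146755) 73312539 to 73328082 on the minus strand of chromosome 7. All 7 are annotated as protein-coding. Of the exonic bases of CAPN3, 57.1% are shared on the same strand with a readthrough gene, ENSG00000258461, and 112 exonic bases of TUBA4B (6.68%) lie opposite an exon of TUBA4A. The strand setting of the counting is not given in the sources used here, so reads in those stretches may not have been told apart.

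All 7 genes rose in HepG2, and the sequence upstream of the start site is shown for 4 of them. RefSeq promoter entries (GRCh38.p14) matched 5 of the 7 genes, with 3 start sites for CAPN3, and PRR15L and ERP27 were not matched. The window of TUBA4B was searched but is not shown. Each line holds 250 bases ending just before the RefSeq start, in the direction of transcription, and capitals mark matches on either strand to the motifs named in the next paragraph. The regions are chr12:53423605-53423854 (plus strand) for AMHR2, chr1:47190037-47190286 (minus strand) for PDZK1IP1, chr15:42359251-42359500 (plus strand) for the first start of CAPN3 and chr7:73325576-73325825 (minus strand) for TRIM50. The windows of PDZK1IP1 and TRIM50 lie inside their GENCODE spans, since GENCODE lists transcripts that start further upstream.
AMHR2: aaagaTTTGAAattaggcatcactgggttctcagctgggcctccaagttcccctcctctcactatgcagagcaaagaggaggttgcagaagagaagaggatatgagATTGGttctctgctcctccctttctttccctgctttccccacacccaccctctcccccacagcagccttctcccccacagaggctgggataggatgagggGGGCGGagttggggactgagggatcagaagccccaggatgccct
PDZK1IP1: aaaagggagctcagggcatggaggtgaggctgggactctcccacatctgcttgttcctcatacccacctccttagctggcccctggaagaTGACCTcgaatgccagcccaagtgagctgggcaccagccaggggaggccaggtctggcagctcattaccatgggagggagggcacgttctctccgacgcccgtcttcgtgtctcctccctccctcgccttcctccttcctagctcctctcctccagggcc
CAPN3: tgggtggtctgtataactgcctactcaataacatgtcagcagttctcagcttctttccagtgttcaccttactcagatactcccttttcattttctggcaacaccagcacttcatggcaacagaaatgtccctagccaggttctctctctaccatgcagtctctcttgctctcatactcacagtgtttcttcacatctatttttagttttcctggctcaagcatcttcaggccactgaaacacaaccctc
TRIM50: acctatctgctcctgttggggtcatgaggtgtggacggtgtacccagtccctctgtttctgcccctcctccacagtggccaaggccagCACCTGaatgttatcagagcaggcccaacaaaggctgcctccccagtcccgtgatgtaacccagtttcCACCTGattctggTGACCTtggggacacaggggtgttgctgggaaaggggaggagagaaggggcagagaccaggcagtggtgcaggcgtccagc

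The CpG dinucleotides of the windows were counted. The AMHR2 window held 1, the 3 CAPN3 windows 0, 6 and 4, TRIM50 3 and PDZK1IP1 7, against a median of 11 (quartiles 3 and 23) over 35116 RefSeq windows of the same length. TUBA4B had 12. Of the 250 bases of its window 185 are exons of TUBA4A, and 243 of the second CAPN3 window are exons of the readthrough gene ENSG00000258461. The motifs were searched on both strands. Among them were the TATA box, spelled TATAAA, and the box bound by SP and KLF factors, spelled GGGCGG. The forkhead factor motif was taken as TGTTTAC and the nuclear receptor element as AGGTCA. The AP-1 element was taken as TGANTCA, where N is any base, and the TEAD element as GGAATG. The E-box for MYC and related factors was CACGTG, and the E-box for SNAI and ZEB factors was CAGGTG. The NF-Y box was CCAAT, and the CHR element of MuvB target genes was TTTGAA. The element AGGTCA was found in PDZK1IP1 and TRIM50 and in 12.1% of all windows. CAGGTG was found in TRIM50, at 2 places, and in the second CAPN3 window, and in 17.5% of all windows. CCAAT matched in AMHR2, TUBA4B and the third CAPN3 window, and in 32.0% of all. GGGCGG (42.6% of all) and TTTGAA (13.3%) matched in AMHR2 alone, and TATAAA (10.7%) in TUBA4B alone. The forkhead motif (2.98% of all windows), the AP-1 element (6.57%), the TEAD element (11.9%) and the MYC E-box (6.35%) were in none of the 7 windows. No motif searched was present in all 5 genes. A match is a run of letters in the window, not a measured binding site.

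AMHR2 was close to undetected in control HepG2 cells. The cytoplasmic NC libraries held 2 and 10 counts (0.145 and 0.404 CPM) and the siPANAD libraries 281 and 246 (22.5 and 19.3 CPM). In the nucleus there were 8 and 9 counts with NC (0.394 and 0.423 CPM) and 440 and 426 with siPANAD (17.9 and 19.1 CPM). Both siPANAD libraries lay far above both NC libraries in each fraction, at a log2 fold change of 6.05 (SE 0.28), or 66.2-fold, in the cytoplasm and 5.48 (SE 0.26), or 44.6-fold, in the nucleus. The cytoplasmic value rests on few control counts. Without HepG2 cytoplasm NC replicate 2 it was 7.10.

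PDZK1IP1 also started near the limit of detection in HepG2. Its NC counts were 3 and 11 in the cytoplasm (0.217 and 0.445 CPM), against 193 and 204 with siPANAD (mean 15.7 CPM). The nuclear libraries had 10 and 6 counts with NC (0.492 and 0.282 CPM) and 197 and 154 with siPANAD (mean 7.46 CPM). The groups did not overlap, and the log2 fold change was 5.42 (SE 0.29) in the cytoplasm and 4.25 (SE 0.29) in the nucleus, or 42.9-fold and 19.1-fold. Without HepG2 cytoplasm NC replicate 2 the cytoplasmic value was 6.13.

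CAPN3 RNA lay mainly in the nuclear libraries. In the nucleus it had 22 counts in each NC library (1.08 and 1.03 CPM) and 1180 and 923 with siPANAD (47.9 and 41.5 CPM), a log2 fold change of 5.39 (SE 0.21) or 42.0-fold. In the cytoplasm it had 6 and 5 counts with NC (0.434 and 0.202 CPM) and 115 and 139 with siPANAD (9.20 and 10.9 CPM), 5.10 (SE 0.30) or 34.3-fold. The nuclear NC libraries were nearly equal, whereas leaving out HepG2 cytoplasm NC replicate 2 moved the cytoplasmic value to 4.51. The readthrough gene that shares CAPN3 exons had 5 counts in the 2 nuclear NC libraries together and 25 with siPANAD, and 0 and 3 in the cytoplasm, so few reads were assigned to it.

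TRIM50 was the most abundant of the 7 in the HepG2 nucleus. Its nuclear counts were 310 and 379 with NC (15.3 and 17.8 CPM) and 6785 and 6298 with siPANAD (276 and 283 CPM), a log2 fold change of 4.08 (SE 0.14) or 16.9-fold. In the cytoplasm it had 41 and 68 counts with NC (2.96 and 2.75 CPM) and 630 and 552 with siPANAD (50.4 and 43.3 CPM), 4.04 (SE 0.17) or 16.5-fold. The rise was thus of similar size in the 2 fractions, from a nuclear control level that was not low. Its close copies TRIM73 and TRIM74 rose as well, and how reads that match several copies were counted is not given in the sources used here, so the split among the 3 genes is uncertain.

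ERP27 and TUBA4B were detected in every HepG2 library. ERP27 had 17 and 27 counts in the cytoplasmic NC libraries (1.23 and 1.09 CPM) and 338 and 296 with siPANAD (27.0 and 23.2 CPM), at 4.45 (SE 0.22) or 21.8-fold. In the nucleus it had 27 and 18 (1.33 and 0.847 CPM) against 380 and 319 (15.4 and 14.3 CPM), at 3.77 (SE 0.22) or 13.7-fold. Its levels within a group lay close together compared with the gap between the groups.

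TUBA4B had 39 and 71 cytoplasmic NC counts (2.82 and 2.87 CPM) and 705 and 711 with siPANAD (56.4 and 55.7 CPM), at 4.30 (SE 0.17) or 19.6-fold. In the nucleus it had 16 and 25 (0.788 and 1.18 CPM) against 233 and 200 (9.46 and 8.98 CPM), at 3.22 (SE 0.21) or 9.31-fold, the lowest fold change of the 7 in either fraction. Its replicates agreed closely in the cytoplasm, and no siPANAD library overlapped an NC library. TUBA4A, the opposite-strand neighbour, was at 10.7 and 8.77 CPM with NC and 8.80 and 10.7 with siPANAD in the cytoplasm and did not pass the test there (log2 fold change 0.02, SE 0.20, adjusted p = 0.952 by edgeR's quasi-likelihood test) or in the nucleus (0.16, SE 0.19, adjusted p = 0.533).

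PRR15L reached the highest cytoplasmic count among the genes that began under 1 CPM. It had 8 and 23 counts with NC (0.578 and 0.929 CPM) and 535 and 526 with siPANAD (42.8 and 41.2 CPM), at 5.71 (SE 0.23) or 52.3-fold. In the nucleus it had 3 and 8 (0.148 and 0.376 CPM) against 356 and 258 (14.5 and 11.6 CPM), at 5.59 (SE 0.29) or 48.2-fold. The groups were far apart, but the nuclear value rests on 11 control counts and was 6.39 without HepG2 nucleus NC replicate 2.

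**Figure D1:**
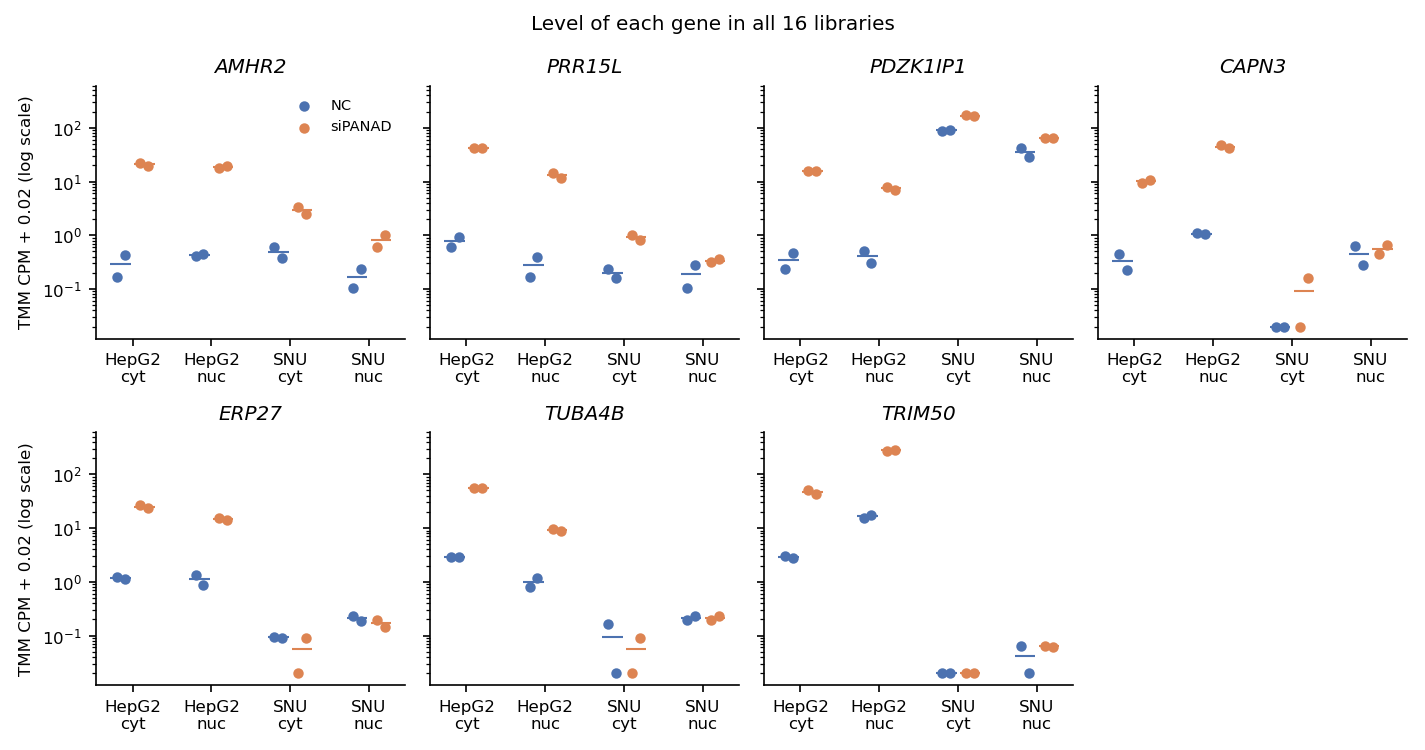
Level of each gene in all 16 libraries (vertical axis: TMM-scaled CPM plus 0.02, log scale; horizontal axis: cell line and fraction, cyt for cytoplasm and nuc for nucleus). Points are libraries, 2 per group, and short lines are group means; in HepG2 every siPANAD point (orange) lies above every NC point (blue), while in SNU-449 only PDZK1IP1 stands above 28 CPM in all libraries and TRIM50, TUBA4B and ERP27 stay under 0.25 CPM.

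In both HepG2 fractions all 7 genes had both siPANAD libraries above both NC libraries. This was so for 35.8% of the 17499 genes tested in the cytoplasm and for 35.7% in the nucleus, but the choice of the genes fixed their count. Ranked by log2 fold change, the 7 stood between positions 12 and 86 in the cytoplasm and between 4 and 76 in the nucleus. They were not alone. The choice has no stated limit, but 79 other genes lay within the bounds of the 7 in the cytoplasm (NC at most 2.86 CPM, log2 fold change at least 4.04) and 69 in the nucleus (at most 16.5 CPM, at least 3.22). CAPN3, ERP27, TUBA4B and TRIM50 reached the count filter of the test in at least 2 NC libraries, while AMHR2, PRR15L and PDZK1IP1 entered through their siPANAD libraries.

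Levels were compared between genes per kilobase of annotated exon. In the HepG2 cytoplasm the 7 stood between the 8.03 percentile (CAPN3) and the 42.4 percentile (TUBA4B) of tested genes with NC, and between 44.5 (CAPN3) and 89.3 (TUBA4B) with siPANAD. The order with siPANAD was TUBA4B (33.4 CPM per kb), PRR15L (27.7), TRIM50 (18.8), PDZK1IP1 (10.9), ERP27 (10.4), AMHR2 (5.94) and CAPN3 (2.01), where the libraries of PDZK1IP1 and ERP27 overlapped. In the nucleus TRIM50 stood apart, at 6.64 CPM per kb (67.8 percentile) with NC and 112 (99.1 percentile) with siPANAD. The other 6 were at the 4.05 to 18.9 percentiles with NC, and with siPANAD followed in the order CAPN3 (8.95 CPM per kb), PRR15L (8.57), ERP27 (6.13), TUBA4B (5.50), AMHR2 (5.26) and PDZK1IP1 (5.19). CAPN3 and PRR15L overlapped there, as did TUBA4B, AMHR2 and PDZK1IP1. With NC the 7 thus lay under the median of tested genes in HepG2, except TRIM50 in the nucleus. In the cytoplasm TUBA4B (42.4 percentile) and TRIM50 (36.35) were the least low.

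The 7 genes differed in where their RNA was found. The ratio of nuclear to cytoplasmic CPM is relative to the typical gene, because TMM scaling centres each library, and is not an amount per cell. In HepG2 with NC it was 5.79 for TRIM50 and 3.33 for CAPN3, 1.49 for AMHR2, 1.17 for PDZK1IP1, 0.938 for ERP27, 0.348 for PRR15L and 0.345 for TUBA4B. The nuclear and cytoplasmic NC libraries of AMHR2, PDZK1IP1 and ERP27 overlapped, so no difference between the fractions was shown for these genes with NC. With siPANAD TRIM50 stayed at 5.96 and PRR15L at 0.310, CAPN3 was at 4.45, and the other 4 had lower ratios, at 0.886 (AMHR2), 0.475 (PDZK1IP1), 0.593 (ERP27) and 0.165 (TUBA4B). In the fit the nuclear minus cytoplasmic log2 fold change was -1.17 (SE 0.54) for PDZK1IP1, -1.08 (SE 0.31) for TUBA4B, -0.68 (SE 0.35) for ERP27 and -0.57 (SE 0.53) for AMHR2. It was -0.12 (SE 0.66) for PRR15L, 0.03 (SE 0.24) for TRIM50 and 0.29 (SE 0.54) for CAPN3. For PRR15L, TRIM50 and CAPN3 the SE was larger than the value, and for AMHR2 nearly as large. No test is given since both contrasts served the choice.

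**Figure D2:**
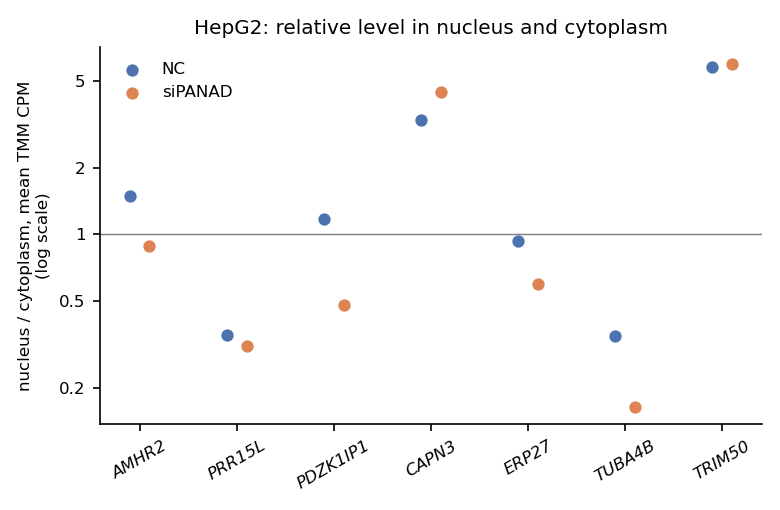
Ratio of nuclear to cytoplasmic level in HepG2 (vertical axis: mean TMM-scaled CPM of 2 nuclear libraries over that of 2 cytoplasmic libraries, log scale; horizontal axis: gene), with NC in blue and siPANAD in orange. TRIM50 and CAPN3 lie above 3 with either siRNA, and TUBA4B falls from 0.345 to 0.165.

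In SNU-449, which the choice did not use, the 7 genes behaved unlike one another. PDZK1IP1 was abundant there with the control siRNA, at the 92.9 percentile of tested genes per kilobase in the cytoplasm. Its cytoplasmic level was 88.8 and 92.3 CPM with NC (90.5 ± 2.46, SD, n = 2) and 172 and 166 CPM with siPANAD (169 ± 3.65). The log2 fold change of 0.90 (SE 0.11), or 1.87-fold, passed edgeR's quasi-likelihood test with Benjamini-Hochberg adjustment (adjusted p = 3.181e-07), with both siPANAD libraries above both NC libraries. In the nucleus it was at 41.6 and 28.7 CPM with NC and 63.3 and 63.6 with siPANAD, 0.85 (SE 0.12) or 1.80-fold (edgeR adjusted p = 1.231e-06). The NC libraries of the nucleus differed from each other by more than the siPANAD libraries did, and the groups did not overlap.

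AMHR2 was low in SNU-449 and was higher with siPANAD. It entered the test through its siPANAD libraries alone, since no NC library reached the filter, so passing it is not independent support. Its counts were 8 and 5 in the cytoplasm with NC (0.587 and 0.354 CPM) and 43 and 35 with siPANAD (3.33 and 2.50 CPM), a log2 fold change of 2.61 (SE 0.42) or 6.12-fold (edgeR adjusted p = 3.829e-06). In the nucleus they were 2 and 5 (0.0861 and 0.213 CPM) against 14 and 23 (0.598 and 0.975 CPM), 2.34 (SE 0.55) or 5.07-fold (edgeR adjusted p = 0.000667). The groups did not overlap in either fraction, at siPANAD levels well under those of HepG2, though the lines were scaled separately. Leaving out 1 library at a time gave nuclear values from 1.85 (without SNU-449 nucleus NC replicate 1) to 3.08 (without SNU-449 nucleus NC replicate 2). With no filter on low counts the values were 2.61 (edgeR adjusted p = 7.237e-09) in the cytoplasm and 2.31 (0.000219) in the nucleus.

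PRR15L passed the test in the SNU-449 cytoplasm, on few counts, and also entered the test only through its siPANAD libraries, so the call is no independent support. It had 3 and 2 counts with NC and 13 and 11 with siPANAD there, a log2 fold change of 2.27 (SE 0.67) or 4.81-fold (edgeR adjusted p = 0.00641). The call was lost without SNU-449 cytoplasm NC replicate 2 (2.02, adjusted p = 0.0699) and without SNU-449 cytoplasm siPANAD replicate 1 (2.11, adjusted p = 0.0510), and DESeq2 gave no adjusted p. With no filter on low counts it was 2.26 (edgeR adjusted p = 0.00750). In the nucleus 2 and 6 counts stood against 7 and 8, 0.87 (SE 0.66, edgeR adjusted p = 0.293), which did not pass. Without SNU-449 nucleus NC replicate 2 it was 1.80 and without SNU-449 nucleus NC replicate 1 it was 0.31, and neither passed (edgeR adjusted p = 0.174 and 0.798). The difference between its 2 fractions was not shown either, as given below.

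CAPN3 was nearly absent from the SNU-449 cytoplasm, with 0 and 0 counts with NC and 0 and 2 with siPANAD (edgeR adjusted p = 0.251). In the nucleus 14 and 6 counts with NC stood against 10 and 15 with siPANAD, and the groups overlapped (0.31, SE 0.52, edgeR adjusted p = 0.660). The 95% exact interval of the nuclear ratio of pooled counts, siPANAD over NC, was 0.663 to 2.36. That interval covers counting error only.

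ERP27, TUBA4B and TRIM50 did not reach the filter in any SNU-449 library and were not tested. ERP27 had 5 and 4 nuclear counts with NC and 4 and 3 with siPANAD, a pooled ratio of 0.774 (exact 95% interval 0.245 to 2.33), and 1 and 1 against 0 and 1 in the cytoplasm. TUBA4B had 4 and 5 nuclear counts with either siRNA, a ratio of 0.995 (0.350 to 2.83), and 2 and 0 against 0 and 1 in the cytoplasm. TRIM50 had 0 counts in all 4 cytoplasmic libraries, which allows up to 3 counts in each. Relative to the library totals, 3 counts are 0.154 to 0.173 CPM before TMM scaling, and more after it. In the nucleus TRIM50 had 1 and 0 counts with NC against 1 and 1 with siPANAD. A change of a few-fold in the cytoplasm was not detectable at this depth for these 3 genes.

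**Figure D3:**
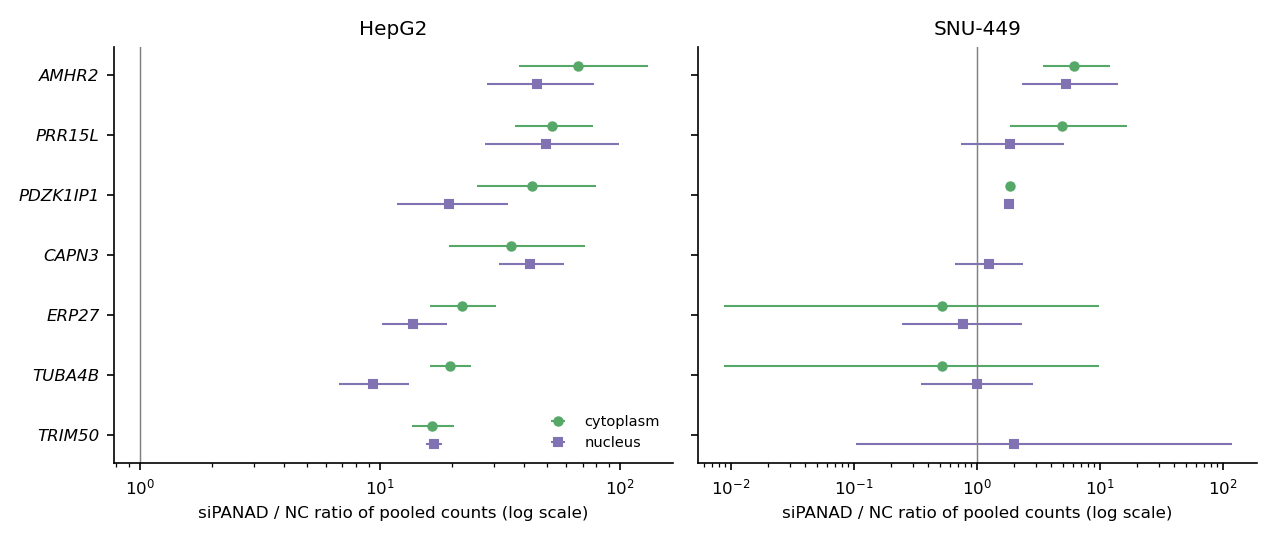
Ratio of pooled counts, siPANAD over NC, scaled by library size (horizontal axis, log scale, different ranges in the 2 panels), for each gene in the cytoplasm (green circles) and nucleus (purple squares) of HepG2 (left) and SNU-449 (right). Bars are exact 95% intervals for counting error; in SNU-449 the ratios of CAPN3 and TRIM50 in the cytoplasm are not drawn because NC had 0 counts, and the intervals of ERP27 and TUBA4B include 1.

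Of the 7 genes, 4 were tested in SNU-449 (AMHR2, PRR15L, PDZK1IP1 and CAPN3). Of these 4, 3 were called higher in the cytoplasm (AMHR2, PRR15L and PDZK1IP1), against 19.6% of all 17895 genes tested. In the nucleus 2 were called higher (AMHR2 and PDZK1IP1), against 22.1%. None of the 4 was called lower, against 20.1% and 23.9% of all genes tested. In each fraction 3 of the 4 (AMHR2, PRR15L and PDZK1IP1) had both siPANAD libraries above both NC libraries. This was so for 34.3% of all genes tested in the cytoplasm and 35.6% in the nucleus. AMHR2 and PRR15L reached the filter only through their siPANAD libraries, so of the genes called only PDZK1IP1, at its far higher level, passed the filter in its NC libraries. With NC in SNU-449 the nuclear level of PDZK1IP1 was below the cytoplasmic level (log2 ratio -1.37, SE 0.12, edgeR adjusted p = 3.421e-11), in a comparison where 79.8% of genes were called in either direction. AMHR2 was also lower in the nucleus (-1.60, SE 0.69, edgeR adjusted p = 0.0326), a call lost with DESeq2 (adjusted p = 0.0821), without SNU-449 cytoplasm NC replicate 1 (0.205) and without SNU-449 nucleus NC replicate 1 (0.180). CAPN3 was higher in the nucleus, where it had 20 counts in 2 libraries against 0 in the cytoplasm (edgeR adjusted p = 0.00103), but it had passed the filter through nuclear libraries alone, so this call is no independent support. PRR15L did not pass (-0.07, SE 0.86, adjusted p = 0.943). The change of this ratio with siPANAD was called for none of the 4 genes tested (edgeR adjusted p = 0.376 to 0.891), against 20.2% of all genes.

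The partners of each gene were followed through lists chosen with earlier results of these data in view, so their counts are a description. For AMHR2, 17 other genes of AMH and BMP signalling were tested in HepG2. Of these, 2 rose and 7 fell in the cytoplasm (median log2 fold change -0.32) and 2 rose and 3 fell in the nucleus (median -0.02, where the median over all genes was -0.03), and 23.7% and 22.0% of all genes rose and 24.2% and 23.6% fell. The ligand BMP6 fell from 2.89 ± 0.313 to 0.513 ± 0.161 CPM (SD, n = 2) in the cytoplasm (-2.46, SE 0.41, edgeR adjusted p = 2.190e-05) and by 3.08 in the nucleus (SE 0.41). Its siPANAD means (0.513 and 0.277 CPM) lay under the filter cutoff of 0.573 CPM. BMP6 passed the filter through its NC libraries, so its call in HepG2 is no independent support. ID4, an inhibitor of DNA-binding proteins and a BMP target, rose in the cytoplasm (1.18, SE 0.35), and SMAD7, an inhibitory SMAD, in the nucleus (0.44, SE 0.14). In SNU-449, 2 of 18 rose and 9 fell in the cytoplasm (median -0.50) and 1 rose and 6 fell in the nucleus (median -0.17). Over all genes tested in SNU-449, 19.6% rose and 20.1% fell in the cytoplasm, and 22.1% and 23.9% in the nucleus. These shares also stand beside the SNU-449 counts of the lists below. BMP6 fell by 1.23 (SE 0.24) in the cytoplasm, and BMPR2, a type II receptor for BMPs, by 1.22 (SE 0.12) in the nucleus. ID4 fell in the cytoplasm (-1.37, SE 0.33) and in the nucleus (-1.65, SE 0.34).

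Among the partners of PDZK1IP1, 10 PDZ scaffolds and transporters of kidney and liver were tested in HepG2. In the cytoplasm 4 rose and 4 fell, and in the nucleus 4 rose and 3 fell (medians 0.05 and 0.25). Over all genes, 23.7% rose and 24.2% fell in the cytoplasm, and 22.0% and 23.6% in the nucleus. PDZK1, the scaffold that gave the gene its name, rose from 16.1 ± 2.07 to 74.2 ± 5.35 CPM in the cytoplasm (edgeR adjusted p = 1.830e-12) and by 2.32 on the log2 scale (SE 0.13) in the nucleus. SLC5A2, the glucose transporter SGLT2, rose from 1.08 ± 0.212 to 3.75 ± 0.787 CPM (1.84, SE 0.33) and by 1.84 (SE 0.22) in the nucleus. In SNU-449, where PDZK1IP1 was abundant, 1 of 11 rose and 1 fell in the cytoplasm and 5 rose and 2 fell in the nucleus.

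Of the other calpains and their inhibitor calpastatin, 11 were tested in HepG2, and 4 rose and 3 fell in each fraction. Over all genes, 23.7% rose and 24.2% fell in the cytoplasm, and 22.0% and 23.6% in the nucleus. CAPN9, a calpain of the stomach and intestine, rose from 0.230 ± 0.0181 to 2.81 ± 0.0167 CPM in the cytoplasm (3.56, SE 0.41, edgeR adjusted p = 8.069e-08) and by 3.63 (SE 0.36) in the nucleus. CAPN11, a calpain of the testis, was at 0 counts in the cytoplasmic NC libraries and at 0.715 ± 0.346 CPM with siPANAD, and it rose by 2.06 (SE 0.32) in the nucleus. Both started below 1 CPM in each fraction. The NC means of CAPN9 (0.230 CPM in the cytoplasm, 0.263 in the nucleus) lay under the filter cutoff of 0.573 CPM. It entered the test through its siPANAD libraries, so its call is no independent support. In SNU-449, 3 of 10 rose and 0 fell in the cytoplasm, and 1 rose and 3 fell in the nucleus.

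Most tested relatives of ERP27 fell. Of 18 other members of the protein disulfide isomerase family and their oxidases tested in HepG2, 0 rose and 12 fell in the cytoplasm and 1 rose and 12 fell in the nucleus (medians -0.79 and -0.74). Over all genes, 23.7% rose and 24.2% fell in the cytoplasm, and 22.0% and 23.6% in the nucleus. ERO1A, the oxidase that recharges these enzymes, fell from 165 ± 6.95 to 36.6 ± 1.57 CPM in the cytoplasm (-2.17, SE 0.14, edgeR adjusted p = 2.911e-12), and PDIA4 from 1031 ± 44.8 to 363 ± 22.9 (-1.51, SE 0.13). In the nucleus they fell by 2.06 (SE 0.14) and by 1.55 (SE 0.13). The SNU-449 libraries showed 2 risen and 11 fallen of 16 in the cytoplasm and 1 and 8 in the nucleus.

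Other alpha tubulins did not rise with TUBA4B in HepG2 either, since 0 of 6 rose and 3 fell in each fraction. Over all genes, 23.7% rose and 24.2% fell in the cytoplasm, and 22.0% and 23.6% in the nucleus. TUBA1A fell from 36.2 ± 3.30 to 13.1 ± 1.22 CPM in the cytoplasm (-1.47, SE 0.17, edgeR adjusted p = 5.722e-08) and by 1.64 (SE 0.18) in the nucleus. TUBA1B fell by 0.87 (SE 0.15) in the cytoplasm and TUBA1C by 1.18 (SE 0.17) in the nucleus. In SNU-449, 1 rose and 3 fell in the cytoplasm, and none passed in the nucleus.

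For TRIM50, 16 related or linked genes were tested, of which 7 rose and 3 fell in the HepG2 cytoplasm and 6 rose and 1 fell in the nucleus. Over all genes, 23.7% rose and 24.2% fell in the cytoplasm, and 22.0% and 23.6% in the nucleus. The copies TRIM74 and TRIM73 rose most, from 2.49 ± 0.763 to 24.4 ± 0.164 CPM (3.23, SE 0.19) and from 4.66 ± 0.362 to 27.0 ± 2.62 CPM (2.55, SE 0.25) in the cytoplasm, and by 2.98 (SE 0.19) and 2.77 (SE 0.25) in the nucleus. These values carry the same doubt about reads shared among copies as TRIM50 itself. In SNU-449, 5 of 16 rose and 1 fell in the cytoplasm, and 5 rose and 2 fell in the nucleus. TRIM73 rose most in the SNU-449 cytoplasm, from 0 to 0.402 ± 0.24 CPM (5.94, SE 1.65), at a low level and with the same doubt about shared reads. PRR15, the paralog of PRR15L, rose by far less than PRR15L in HepG2, at 0.67 (SE 0.15) in the cytoplasm and 0.53 (SE 0.15) in the nucleus, and was not tested in SNU-449.

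The genes next to the 7 changed in both directions. Within 100 kb, 46 neighbours were tested in HepG2, and 15 rose, 7 fell and 24 did not pass in the cytoplasm, where 23.7% of all genes rose and 24.2% fell. In the nucleus 15 rose, 5 fell and 26 did not pass, where 22.0% of all genes rose and 23.6% fell. The nuclear rises include ENSG00000258461 and RPL7AP77, whose reads may not have been told apart from those of CAPN3 and TRIM50. The median log2 fold change of the neighbours was 0.22 in the cytoplasm and 0.29 in the nucleus, against -0.00393 and -0.03 over all genes. SP1 and PRR13, on the sides of AMHR2, were at 0.01 (SE 0.14) and -0.10 (SE 0.19) in the cytoplasm and did not pass. CDK5RAP3, near PRR15L, fell by 0.58 (SE 0.24) in the cytoplasm, where its NC mean was 4.16 CPM. In the nucleus, with an NC mean of 86.3 CPM, CDK5RAP3 was called in the other direction, higher by 0.36 (SE 0.14). GANC and ZNF106, on the sides of CAPN3, were at 0.97 (SE 0.15, risen) and -0.09 (SE 0.14, not passed) in the cytoplasm.

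LINC00853, an antisense RNA near PDZK1IP1, rose from 0.113 to 0.873 CPM in the cytoplasm (2.99, SE 0.66, edgeR adjusted p = 0.000518) and by 2.77 (SE 0.53) in the nucleus, while STIL, on the other side, fell by 0.54 (SE 0.15). C12orf60, the nearest tested gene to ERP27, rose by 1.47 (SE 0.43) in the cytoplasm and did not pass in the nucleus (0.46, SE 0.38). STK16 and DNAJB2, on the sides of TUBA4B, rose by 0.94 (SE 0.13) and 0.39 (SE 0.14) in the cytoplasm. NSUN5, beside TRIM50, fell by 0.33 (SE 0.13) in the cytoplasm. RPL7AP77, a processed pseudogene inside the TRIM50 span on the opposite strand, rose by 3.57 (SE 0.53) in the nucleus. It was named after its value was seen, and reads of it and of TRIM50 introns may not have been told apart. The NC means of LINC00853 and RPL7AP77 were at most 0.144 CPM, under the filter cutoff of 0.573 CPM. Both entered the test through their siPANAD libraries, so their calls are no independent support.

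**Figure D4:**
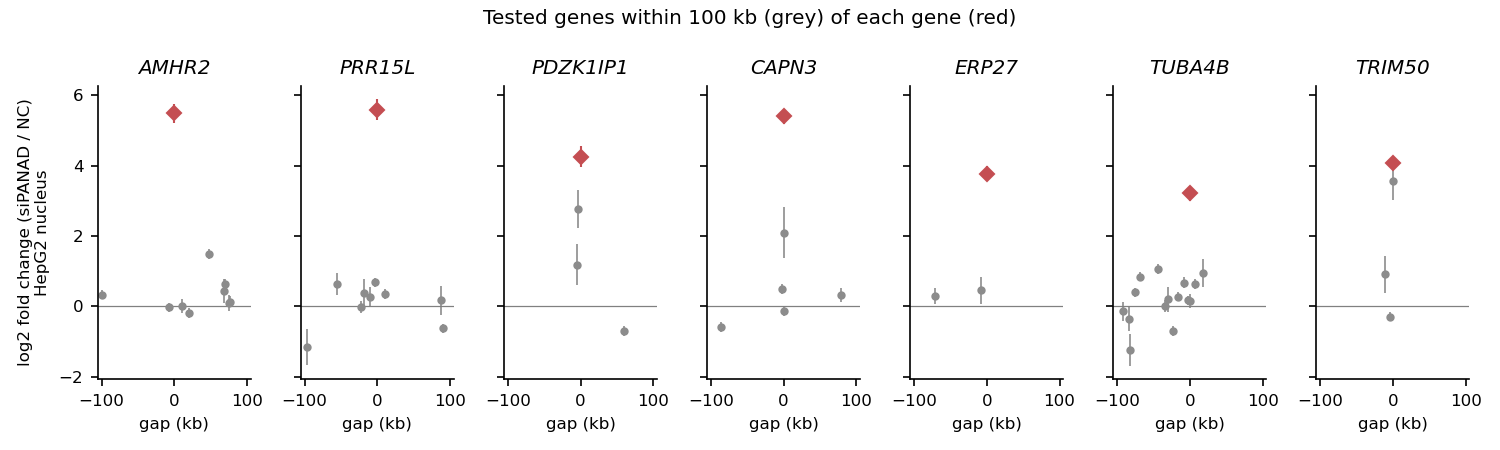
Log2 fold change (siPANAD over NC) in the HepG2 nucleus of each gene (red diamond) and of every tested gene within 100 kb (grey points), against the gap between the gene spans in kb, negative to the left (lower coordinates); bars are SEs. Each red diamond is the highest point of its panel, and among the grey points RPL7AP77 at TRIM50 (3.57) and LINC00853 at PDZK1IP1 (2.77) come nearest.

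The 7 profiles were compared with all 20459 genes of the joint filter over the 16 libraries, as Pearson r of log2 CPM. These libraries fall into 8 groups of 2 and differ most by line, so the values are a description. The genes were chosen for their rise in the HepG2 libraries, so high r among them follows in part from the choice. Without PDZK1IP1 the 15 pairs among the genes had r of 0.644 to 0.972, whereas the 6 pairs with PDZK1IP1, which was abundant in SNU-449, had -0.597 to 0.166. The genes most like TRIM50 were AQP7, a water and glycerol channel (r = 0.997), and ACSM2A, a mitochondrial acyl-CoA synthetase of liver and kidney (0.995). AQP7 was at 3.18 ± 0.102 CPM with NC and 24.8 ± 0.220 with siPANAD in the HepG2 nucleus and was at 0 or near 0 in SNU-449.

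ERP27 was most like the transcript ENSG00000275025 (0.984) and ITIH1, a secreted plasma protein of hepatocytes (0.984), which went from 0.588 ± 0.0887 to 10.1 ± 1.26 CPM in the HepG2 cytoplasm. TUBA4B was most like AKAP14 (0.986) and FABP3, a fatty acid binding protein (0.980). PDZK1IP1 was most like TBC1D2 (0.984), a GTPase-activating protein, and SIGIRR (0.981), a receptor that dampens interleukin-1 signalling, both of which were higher in SNU-449 than in HepG2 with NC. CAPN3 was most like ENSG00000284691 (0.977) and ZNF710-AS1 (0.968), AMHR2 like CHD9NB (0.968) and EXOC3L1 (0.964), and PRR15L like the cystatin CST5 (0.967) and MR1 (0.960), which presents vitamin B metabolites to T cells. The mean profile of the 7 was nearest to LINC00570 (0.976), ENSG00000228620 (0.969), LCE1E (0.969), CYP17A1 (0.968), an enzyme of steroid hormone synthesis, and ENSG00000286796 (0.965). CYP17A1 rose from 0.290 ± 0.104 to 5.11 ± 0.239 CPM in the HepG2 cytoplasm, and its mean was at most 0.0215 CPM in any SNU-449 group. With a smaller prior count of 0.5, 10 of the 14 genes named for single profiles and 2 of the 5 named for the mean were named again.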

How the data were processed

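RNA of the cytoplasm and nucleus was sequenced as directional libraries, per the labels. The authors deposited raw read counts per Ensembl gene, 1 table per line. Trim Galore 0.6.4, HISAT2 2.2.1 and the build hg38 are named per the submitters' processing notes. The counting program, annotation and strand setting are not given in the sources used here. Broken rows of ANK2 (5 and 3) were left out, and 61398 identifiers matched a symbol.

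Counts were fitted per line (8 libraries, 1 mean per group) in R 4.3.3 with edgeR 4.0.16 (TMM, filterByExpr with a minimum count of 10, robust quasi-likelihood test, two-sided, Benjamini-Hochberg over all genes, adjusted p under 0.05). Levels are TMM-scaled CPM, and folds of single genes are 2 to the fitted log2 value. Intervals on pooled counts are exact (95%) and, like the floor of 3 counts, cover counting error only. The 7 genes and all lists were chosen with earlier results of these data known. Named by rule were the 7 genes, C7orf25, CDK6, up to 2 list members with the largest change past the threshold in each fraction, the nearest tested neighbour on each side (1 is not reported here) and overlapping genes, and the 2 most similar profiles (5 for the mean profile, prior count 2). Alternatives were DESeq2 1.42.0 and its size factors, no filter, other sets of libraries, a replicate block, leaving out each library, 50 kb and a prior count of 0.5. The edgeR fit was tried on simulated SNU-449 counts of genes past the filter, with changes placed in the cytoplasm. HepG2 counts and the DESeq2 fit were not tried in this way.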

Additional observations from a re-analysis of the deposited data

How the results depend on the processing

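With few control counts, depth limits how well the size of the HepG2 fold changes is known. Their direction was the same for all 7 genes in every alternative fit, but the choice of the genes had fixed it. Leaving out 1 library at a time gave 5.66 to 7.10 for AMHR2, 5.12 to 6.13 for PDZK1IP1 and 4.51 to 5.59 for CAPN3 in the HepG2 cytoplasm, and 5.08 to 6.39 for PRR15L in the nucleus (log2). In SNU-449 some values that had not passed the test changed sign in such fits: CAPN3 in the nucleus ran from -0.19 to 1.03, the nucleus to cytoplasm log2 ratio of PRR15L with NC from -1.01 to 0.48, and the shift of that ratio with siPANAD from -0.76 to 0.47 for AMHR2, from -0.30 to 0.24 for PDZK1IP1 and from -4.26 to 0.32 for CAPN3. The number of genes called for that shift was 3614, and 2392 to 3650 without 1 library, the lowest without SNU-449 nucleus siPANAD replicate 2. The cause was not tested. The replicate numbers of the labels gave a common deviation of -0.0945 to 0.0410 (correlation) in HepG2 and -0.0392 to 0.0611 in SNU-449, so they mark no pairing seen in the data. With the replicate number as a block, 8193 genes (of 8390 before) were called in the HepG2 cytoplasm, 7684 (7981) in the HepG2 nucleus, 6988 (7106) in the SNU-449 cytoplasm, 8073 (8232) in the SNU-449 nucleus, 14191 (14272) between the fractions of SNU-449 with NC and 3525 for the shift, and no call among the 7 genes changed. Within 50 kb, 10 neighbours rose and 4 fell of 28 in the HepG2 cytoplasm, and 11 and 1 in the nucleus. Over all genes, 23.7% rose and 24.2% fell in the cytoplasm, and 22.0% and 23.6% in the nucleus. The nuclear rises include ENSG00000258461 and RPL7AP77, whose reads may not have been told apart from those of CAPN3 and TRIM50. The fit of only the libraries compared was not run for the shift.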
